A study of Homo sapiens with 40 samples.

Results

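Single T47D cells processed by G&T differed in how many of their reads fell outside every annotated exon. The 13 G&T cells deposited are part of a series of 40 cells, and 11 of them were ranked by this share. The share is the number of reads that mapped to 1 place but to no annotated exon, divided by all reads of the cell. The 5 cells with the highest share and the 5 with the lowest were compared, and the middle cell, C1, was left out of both sets. The 2 remaining cells, C2 (13.5%) and F1 (17.2%), each missed a quality threshold and were not ranked.

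T47D is a luminal breast cancer cell line that expresses hormone receptors. All cells of the series were T47D at passage 10, with no drug treatment or separate cultures named in the labels. Live single cells positive for the surface proteins EpCAM and CD49f were sorted by FACS. G&T (genome and transcriptome sequencing) separates polyadenylated RNA from genomic DNA with oligo-dT beads before a Smart-seq2 type amplification, and its libraries hold reads of ERCC spike-in RNA. The other cells of the series were processed with the Takara and NEB kits.

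A read outside annotated exons can come from an intron of unspliced RNA, from a transcript that the annotation lacks, or from genomic DNA. Unspliced RNA is nuclear, its reads fall in genes that the cell transcribes, and long introns offer more sequence to be captured. Oligo-dT primers can also anneal to runs of A inside introns. Reads from genomic DNA would be spread over the genome, genes that a cell never transcribes included.

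The sets were chosen on the share itself, so the share is given as a description. It was 14.9% in B1, 18.4% in A2, 18.6% in B2, 19.2% in E1 and 23.2% in D1, the high-share cells. In the low-share cells it was 5.46% in H1, 7.25% in E2, 8.64% in D2, 8.82% in G1 and 10.6% in A1. The middle cell C1 had 11.4%, so it lay nearer to A1, just inside the low-share set, than to B1, just inside the high-share set. The 11 Takara cells that passed the quality thresholds had 1.46% to 7.27% and the 11 NEB cells 9.39% to 17.6%, so the high-share G&T cells overlapped the range of NEB cells and lay above that of Takara cells. Each sample is 1 cell, no separate cultures are named, and a set of cells counts as 1 sample. No test was therefore made, means are given with the SD over cells, and "no overlap" means that the 5 cells of one set all lay above or below the 5 of the other.

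With another denominator, over uniquely mapped reads alone, the same cells formed both sets. Per read on genes, the high-share cells had 0.304 ± 0.0625 (SD, n = 5) unannotated reads and the low-share cells 0.118 ± 0.0267 (SD, n = 5). Per ERCC read the unannotated reads numbered 13.1 to 22.1 in the high-share cells and 3.23 to 10.95 in the low-share cells, without overlap. All these values hold the count of unannotated reads by which the cells were ranked, so their separation was largely fixed by the ranking.

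**Figure D1:**
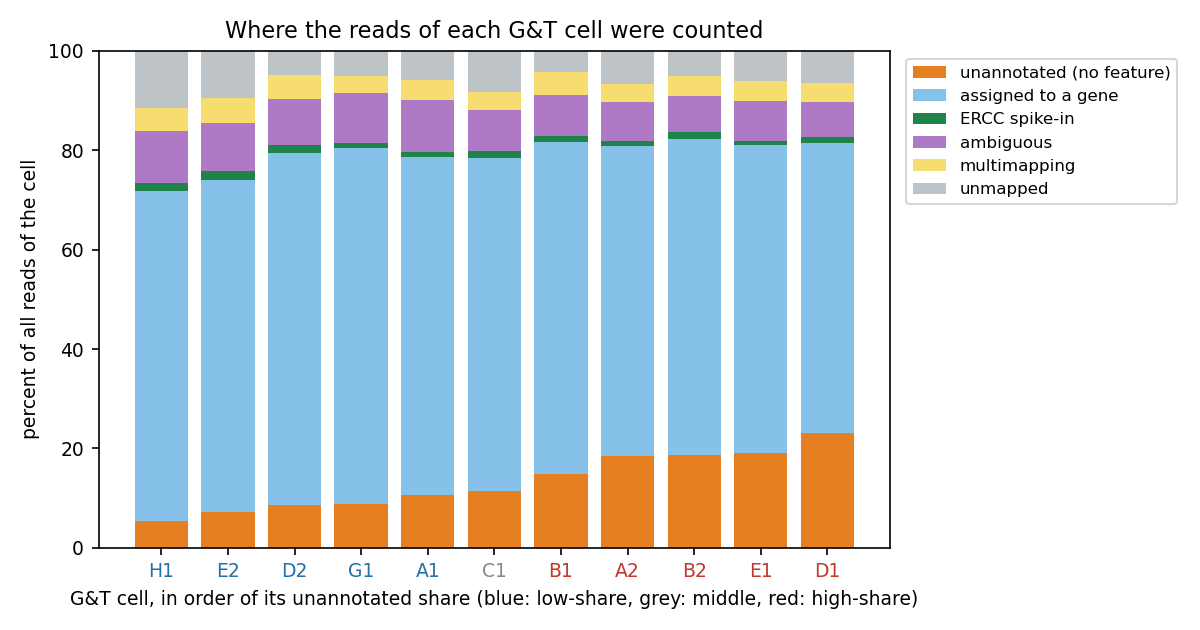
Percent of all reads of each ranked G&T cell by where they were counted, with cells in order of their unannotated share and 1 stacked bar per cell. The unannotated part grows from 5.46% in H1 to 23.2% in D1, while the ambiguous part averages 7.70% in the high-share and 9.98% in the low-share cells.

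The high-share cells had fewer reads on genes on average, a count that leaves out the unannotated reads. All reads numbered 1033969 to 1506065 in the high-share and 1101448 to 1646986 in the low-share cells, with overlap. Reads on genes numbered 1005282 in B1, 762389 in A2, 658154 in B2, 745836 in E1 and 666926 in D1, against 788237 to 1166633 in the low-share cells, so the ranges overlapped through B1 alone. Ambiguous reads, those that overlap exons of more than 1 gene, made up 7.70% ± 0.541 (SD, n = 5) of reads in the high-share cells and 9.98% ± 0.550 (SD, n = 5) in the low-share cells, and the sets did not overlap. The denominator holds the unannotated reads, so the ambiguous share is not independent of the unannotated one. How much of the difference this makes up was not tested. Unmapped reads (4.32% to 6.65% and 4.82% to 11.6%), multimapping reads (4.02% ± 0.375 and 4.36% ± 0.666), ERCC reads (1.69% ± 0.326 and 2.04% ± 0.613 of the library) and MT reads (15.3% ± 3.53 and 17.5% ± 4.26 of the library) overlapped between the high-share and low-share sets (± SD, n = 5 each). H1 and E2 had the most unmapped reads, 11.6% and 9.51%.

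All cells carried the luminal epithelial markers, with 8 of 8 detected. Their summed level was 8223 to 10525 CPM in the high-share cells and 3931 to 11751 CPM in the low-share cells, where CPM is counts per 1000000 reads on genes. Leukocyte, basal, endothelial and fibroblast markers each summed to at most 47.2 CPM in any compared cell, with KRT17, CDH5, COL3A1, LUM, CD3E, MS4A1, CD14 and LYZ at 0 reads. EPCAM, one of the sorting markers, was at 122 to 272 CPM in the high-share cells and 30.1 to 302 CPM in the low-share cells. ITGA6, which encodes CD49f, was at 12.9 to 114 CPM and 4.18 to 55.8 CPM, and both genes overlapped between sets. Cells with CD45 or CD31 were gated out. PTPRC, the gene of CD45, had 2.48 CPM in A1 and 0 in the other ranked cells, and PECAM1, the gene of CD31, had 5.36 CPM in E1, 11.995 in D1 and 0 in the others.

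High-share cells detected more genes. A gene counts as detected with 1 read. B1 detected 12166 genes, A2 11750, B2 11253, E1 12611 and D1 12794, whereas H1 detected 9541, E2 10074, D2 10831, G1 11145 and A1 11102. The sets did not overlap, and they did not overlap after every cell was thinned to 658154 reads on genes (11952 ± 630 against 10178 ± 798, SD, n = 5). With at least 5 reads required, the sets overlapped (9177 ± 324 against 8047 ± 756, SD, n = 5).

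By biotype, the number of genes detected separated the sets for some noncoding classes. lncRNA genes, whose RNAs are long, encode no protein and are often nuclear, numbered 759 to 1111 in the high-share cells and 596 to 735 in the low-share cells. They took 1.31% ± 0.0782 and 1.27% ± 0.236 of the reads on genes, which overlapped, so the number of lncRNA genes separated the sets and their total did not. Genes of miRNA hairpins numbered 15 to 30 against 1 to 11, and snRNA genes 26 to 42 against 14 to 20, each at no more than 0.0112% of the reads on genes in any cell. Genes of snoRNAs (15 to 26 against 8 to 16) and of other small RNAs in the class misc_RNA (27 to 62 against 12 to 32) overlapped. Protein-coding genes numbered 9493 to 10449 against 8155 to 9665, and these ranges overlapped. Processed pseudogenes, copies of spliced mRNAs in the genome, numbered 398 to 548 against 350 to 507, again with overlap, while other pseudogenes numbered 265 to 348 against 173 to 261, without it.

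Coding genes that were silent in the cells not used for the split separated the sets as well. A gene was called silent when it had 0 reads in all 11 Takara and all 11 NEB cells, which holds for 6517 of 19493 coding genes. With 26.1 Mb of exons, these genes serve as a sample of exons without a read in T47D cells of the other kits. Silent genes with a read numbered 267 in B1, 309 in A2, 242 in B2, 418 in E1 and 506 in D1. In the low-share cells they numbered 50 in H1, 89 in E2, 97 in D2, 189 in G1 and 209 in A1, and in the middle cell 141. The sets did not overlap, with a mean ratio of 2.75. Within the low-share set, G1 and A1 lay nearest to B2, the lowest high-share cell.

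As a density, the high-share cells had 74.5 ± 24.8 (SD, n = 5) CPM per Mb of silent exon, and the low-share cells 25.6 ± 13.5 (SD, n = 5). The cells ranged from 46.3 in B1 to 113 in D1 and from 14.3 in H1 to 41.5 in G1, with no overlap. Summed over cells, 7233 reads in the high-share and 2966 in the low-share cells gave 72.1 (95% Poisson interval 70.5 to 73.8) and 24.3 (23.4 to 25.1) CPM per Mb. These intervals cover counting error only, and PCR copies of 1 molecule are counted as separate reads. Scaled to ERCC reads in place of reads on genes, the ratio of means was similar (log2 ratio 1.56 against 1.54) but the sets overlapped. By the silent genes' own introns, the pooled density of the high-share cells was 57.3 CPM per Mb at under 2 kb, 66.1 at 2 to 10 kb, 68.7 at 10 to 30 kb, 78.4 at 30 to 100 kb and 77.1 at over 100 kb. In the low-share cells it was 20.9, 20.6, 26.3, 25.5 and 24.96 in the same order. The ratio of means lay between 2.57 and 3.08 over the 5 classes. Single cells of the sets overlapped in the 3 classes up to 30 kb and did not overlap in the 2 longer ones.

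The density in silent exons was set beside the density of unannotated reads over the 2781 Mb of genome outside annotated exons. The latter was 80.3 to 143 CPM per Mb in the high-share cells and 29.6 to 56.2 in the low-share cells. The first density was 0.577 to 0.791 of the second in the high-share cells and 0.390 to 0.937 in the low-share cells. Silent exons thus had fewer reads per Mb than the genome outside annotated exons in each of the 11 cells. The latter includes introns of genes that the cells transcribe. In 50.3% of silent genes an exon of another gene lay within the span. Reads on exons of more than 1 gene count as ambiguous, while the full exon length was used. How far this lowered the silent-exon density was not tested. The density outside exons is a form of the share by which the cells were ranked, so its difference between the sets was fixed by the ranking. Over the 11 cells the rank correlation of the silent-exon density with the share was 0.95. Both quantities share the library and its depth, and this is a description of these cells.

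**Figure D2:**
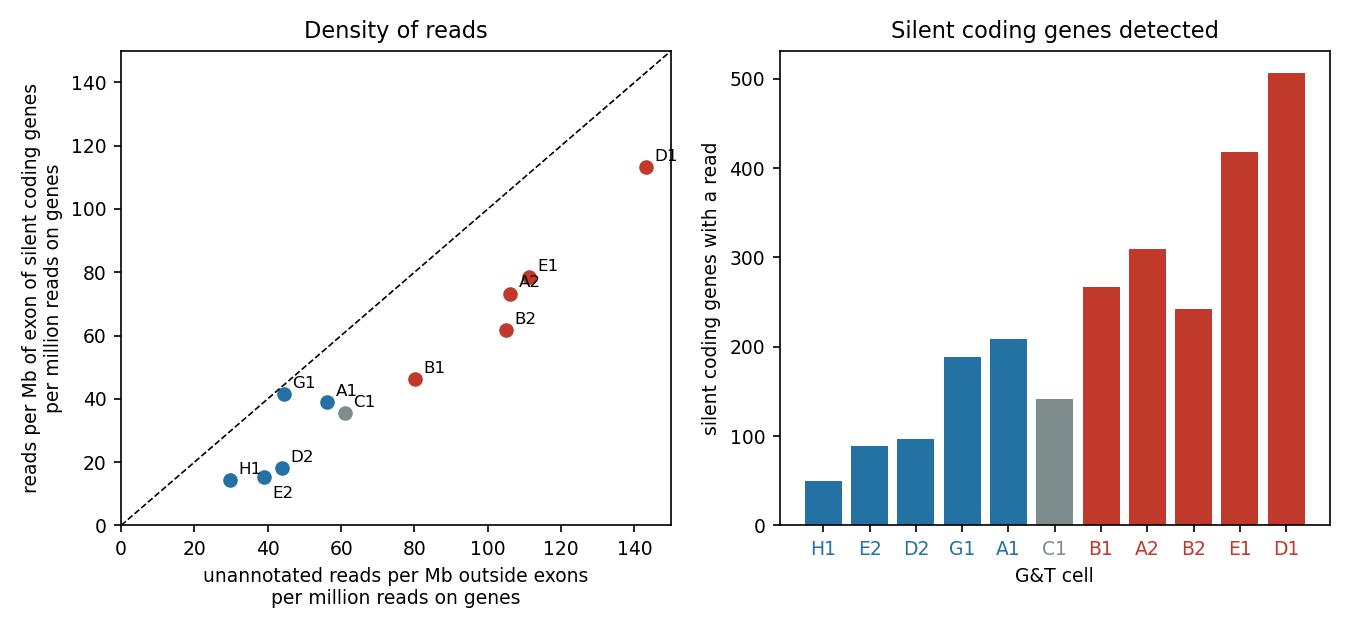
Left, reads on exons of silent coding genes against unannotated reads per Mb outside exons, both as CPM per Mb, with 1 point per G&T cell (blue low-share, grey middle, red high-share) and a dashed line where both are equal. Right, the number of silent coding genes with a read in each cell; all points lie under the line, and the bars run from 50 in H1 to 506 in D1.

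Reads on silent genes were scattered. Of the 6517 silent genes, 1762 had a read in any of the 11 cells, and 1264 of these (71.7%) had it in 1 cell alone. Reads in 3 or more cells were found for 174 genes, and in 6 or more for 4 genes. A read in high-share cells alone was found for 1151 genes, in low-share cells alone for 294 and in both sets for 258. Any pair of high-share cells shared 21 to 60 silent genes, which was 6.72% to 18.1% of the genes of either cell. A detected silent gene had a median of 3 reads per cell in both sets. The share of silent genes with a read grew with exon length, over 5 equal groups of genes, from 7.98% at the shortest exons to 42.0% at the longest in the high-share cells, and from 3.45% to 17.3% in the low-share cells.

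The silent genes with reads in the most cells had reads in both sets. REXO1 had 1.04 CPM in H1, 7.32 in E2, 5.08 in G1, 1.24 in A1, 1.99 in B1, 1.31 in A2 and 27.6 in the middle cell, and 0 elsewhere. H2BC7, one of the replication-dependent histone H2B genes, had 6.34 CPM in G1, 8.67 in A1, 1.99 in B1, 2.62 in A2, 6.08 in B2 and 4.02 in E1. SLC25A27, a mitochondrial carrier, LRRC37A3, FRRS1 and GPRIN1 were the others. None of the 6 separated the sets.

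Genes known from other tissues were also denser in the high-share cells. The lists of liver, striated muscle, neuron, blood, eye and sensory, germ cell, olfactory receptor and very long genes of other tissues, with the keratin-associated, taste receptor and beta-defensin families, hold 713 genes together. Their density was 127 to 339 CPM per Mb in the high-share cells and 82.7 to 115 in the low-share cells, with no overlap. SYCP2, a germ cell gene of the synaptonemal complex with reads in all 11 cells (164 to 346 CPM against 86.3 to 201 CPM), held 1030 of the 2177 reads of these genes in the high-share cells and 609 of 1135 in the low-share cells. Olfactory receptors serve the sensory neurons of the nose. Of 395 such genes, 2 were detected in B1, 6 in A2, 7 in B2, 6 in E1 and 12 in D1, against 0 in H1, 1 in E2, 0 in D2, 2 in G1 and 4 in A1. The pooled density was 38.2 (95% Poisson interval 32.01 to 45.2) CPM per Mb in the high-share and 6.72 (4.503 to 9.66) in the low-share cells, while single cells overlapped. OR6M1 was found at 33.4 CPM in B2 alone and OR10G8 at 19.0 CPM in G1 alone. TTN, the giant muscle protein titin, had 19.7 CPM in A2, 45.6 in B2, 8.996 in D1 and 0 in B1 and E1, against 3.11 in H1, 0.857 in D2 and 0 in the other low-share cells. GRIN2B, a neuronal glutamate receptor subunit with a very long gene, had reads in A2, B2, E1 and D1 (3.93, 3.04, 26.8 and 13.5 CPM) and in no low-share cell. Liver genes were seen in single cells of either set. ALB, serum albumin, had reads in A1 alone (6.20 CPM) and FGG, a fibrinogen chain, in E2 alone (2.09 CPM), while SERPINC1, antithrombin, had reads in A2 alone (11.8 CPM) and CYP2E1, a cytochrome P450, in E1 alone (14.7 CPM). Among the tissue lists, striated muscle genes separated the sets by their summed level, with 26.8 to 97.5 CPM against 7.43 to 18.7 CPM, and no other of these lists did so. XIRP2, an actin-binding muscle gene, held 45.9 CPM of this in A2 alone, and TNNI3, cardiac troponin I, overlapped at 8.95 to 18.2 CPM against 1.24 to 14.6 CPM.

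Position along the genome was examined with silent lncRNA genes that have no exon of another gene within their span. Of these, 248 lay in an intron of an expressed coding gene on the same strand (at least 10 CPM in Takara cells). Their density was 374 in B1, 475 in A2, 282 in B2, 448 in E1 and 425 in D1, as CPM per Mb. In the low-share cells it was 226 in H1, 19.4 in E2, 195 in D2, 159 in G1 and 184 in A1, and in the middle cell 516. The 4242 silent lncRNA genes outside coding genes had 52.1 to 105 in the high-share and 16.4 to 30.2 in the low-share cells. Both positions separated the sets, by mean ratios of 2.56 and 2.94. Density was higher within introns of expressed genes than outside coding genes in all 11 cells, with 401 ± 76.0 against 73.2 ± 21.5 in the high-share and 157 ± 80.5 against 24.9 ± 5.71 in the low-share cells (SD, n = 5 each). The 228 silent lncRNA genes in introns of silent genes held few reads (79 and 28 in all), and the sets overlapped. When all lncRNA genes outside coding genes were taken, silent or not, the log2 ratio was 0.21 in place of 1.56 and the sets overlapped.

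Among expressed genes, 10067 had a mean of at least 5 CPM over the 11 cells. A gene was called when the CPM values of the sets did not overlap and the means differed by at least 2-fold. In all 272 genes (2.7%) were called, 247 (2.45%) higher and 25 (0.248%) lower in the high-share cells. These genes were picked by the lack of overlap itself, so their values are descriptions. The log2 ratio of means with 1 CPM added had a median of 0.43 over all 10067 genes, and 68.2% of genes had a ratio above 0, so ratios are read against this shift. Under TMM scaling the median was 0.05 and the calls were 132 higher and 82 lower, and 61.7% of the calls were higher in place of 90.8%. All 132 higher genes under TMM were among the 247. Leaving out B1 gave 503 higher and 65 lower genes, leaving out G1 500 and 61, leaving out A1 429 and 70, leaving out D1 383 and 50, and leaving out B2 376 and 38. Without D2 the numbers were 362 and 38. Fewer cells overlap less often by construction.

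H1 and E2 stood apart by composition. Their TMM factors were 0.743 and 0.674, against 0.945 to 0.997 in the other low-share cells and 1.07 to 1.21 in the high-share cells. Without H1 and E2 the calls were 351 higher and 70 lower, with 226 of the 247 higher genes among them.

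The genes with the largest ratios were low or absent in the low-share cells. ZFP36L2 (ENSG00000152518), an RNA-binding protein that promotes decay of AU-rich mRNAs, is a 2-exon gene on chromosome 2 (43222402 to 43226606, GRCh38). It had 103 CPM in B1, 110 in A2, 91.2 in B2, 6.70 in E1 and 325 in D1, against 0 in H1, 1.05 in E2, 5.14 in D2, 1.27 in G1 and 3.72 in A1. E1 lay close to D2, and the log2 ratio of 5.31 came mainly from the other 4 high-share cells. AHR, the ligand-activated aryl hydrocarbon receptor (ENSG00000106546, chromosome 7, 16916359 to 17346152), had 22.9 CPM in B1, 56.4 in A2, 68.4 in B2, 38.9 in E1 and 52.5 in D1, against at most 8.67 in A1. ATG2A, a lipid transfer protein of autophagosome formation (chromosome 11, 64894546 to 64917209), had 16.9 to 65.6 CPM against 0 to 3.81.

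Of the 12 genes, 3 had no read in any low-share cell. UAP1L1 had 61 reads in the high-share cells and was at least 24.8-fold higher, CEP85L, which encodes a centrosomal protein, 52 reads and at least 21.1-fold, and ABHD17B, which encodes an enzyme that removes palmitate from proteins, 47 reads and at least 19.1-fold, each against 3 reads over the low-share set. CEP85L has 239880 bases of introns, UAP1L1 1756. MAP6D1 (log2 ratio 4.51), MEX3C (3.96), an RNA-binding ubiquitin ligase, ELMO3 (3.89), a member of the engulfment and cell motility family, AKAP12 (3.88), a scaffold for protein kinase A, ACAP3 (3.83), an activator of ARF GTPase activity, and TMEM185A (3.79) completed this group. The middle cell C1 resembled the high-share cells for MAP6D1 (134 CPM), ATG2A (50.02 CPM) and AHR (65.3 CPM), and the low-share cells for CEP85L, ABHD17B and TMEM185A (0 CPM each). All 12 kept their direction over nuclear genes, under TMM and per ERCC read, and under TMM AKAP12 and TMEM185A were no longer called.

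**Figure D3:**
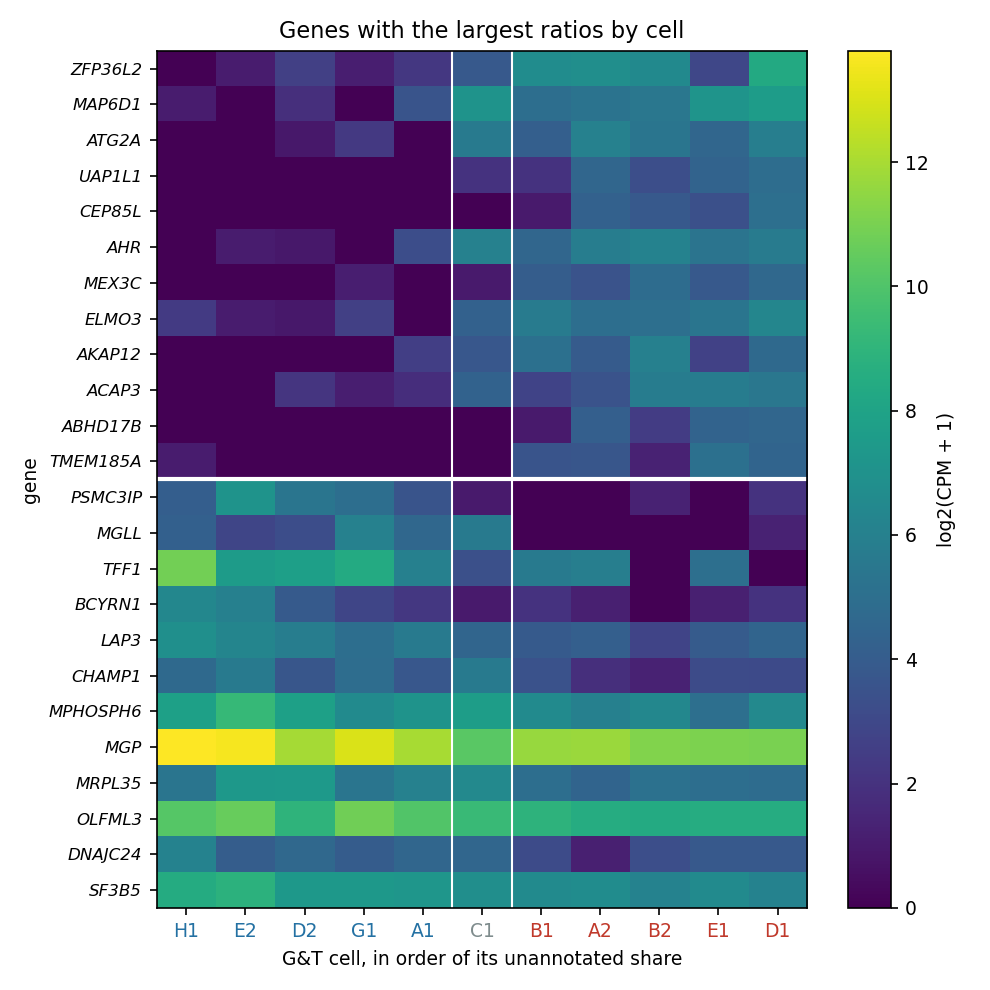
Level of the 12 genes with the highest (top) and 12 with the lowest (bottom) ratio among called genes, as log2(CPM + 1), in the 11 ranked G&T cells in order of their unannotated share. The upper block is dark in the 5 low-share cells, at left, and the lower block is darker in the 5 high-share cells, at right.

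The 25 lower genes were 20 coding genes, 3 pseudogenes, 1 lncRNA and the small RNA gene BCYRN1. TFF1, a secreted trefoil peptide induced by estrogen, had 49.7 CPM in B1, 59.0 in A2, 32.2 in E1 and 0 in B2 and D1. In the low-share cells it had 1872 CPM in H1, 186 in E2, 216 in D2, 339 in G1 and 64.4 in A1. The log2 ratio was -4.20, and H1 held by far the most of the low-share CPM. MGP, matrix Gla protein, an inhibitor of calcification, had 2041 to 3376 CPM against 3860 to 14177 CPM (log2 ratio -1.70), and OLFML3, a secreted olfactomedin-like protein, 339 to 483 CPM against 503 to 1767 CPM (-1.64). PSMC3IP, a recombination cofactor, had 0 to 3.00 CPM against 11.2 to 133 CPM (-4.63), and MGLL, which hydrolyses monoglycerides, 0 to 1.499 CPM against 6.28 to 64.7 CPM (-4.27). BCYRN1 (-3.70) has an Alu-derived sequence with copies elsewhere in the genome, and its counts are uncertain. LAP3 (-2.11), CHAMP1 (-1.96), MPHOSPH6 (-1.81), MRPL35 (-1.68), DNAJC24 (-1.58) and SF3B5 (-1.58) were also lower. Per ERCC read, 6 of these 12 were no longer called (CHAMP1, MGP, MRPL35, OLFML3, DNAJC24 and SF3B5), and all 12 kept their direction.

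Genes with long introns took a larger part of the reads in the high-share cells. Coding genes with over 100 kb of summed introns had 7.34% of the reads on genes in B1, 9.401% in A2, 8.99% in B2, 8.68% in E1 and 9.10% in D1. They had 5.45% in H1, 4.82% in E2, 7.24% in D2, 6.84% in G1 and 6.87% in A1, and 9.29% in the middle cell. The sets did not overlap, though B1 and D2 lay close together. Genes with under 2 kb of introns took 10.999% to 13.9% against 12.02% to 19.8%, with overlap. The median log2 ratio grew with the intron class, from 0.19 (under 2 kb, 736 genes) over 0.37 (2 to 10 kb, 1645 genes), 0.44 (10 to 30 kb, 2493 genes) and 0.51 (30 to 100 kb, 2998 genes) to 0.55 (over 100 kb, 1598 genes). The percentage called higher did not grow with it, at 2.85%, 2.43%, 2.33%, 2.67% and 2.69%, while those called lower made up 0.679%, 0.304%, 0.201%, 0.133% and 0.0626%.

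**Figure D4:**
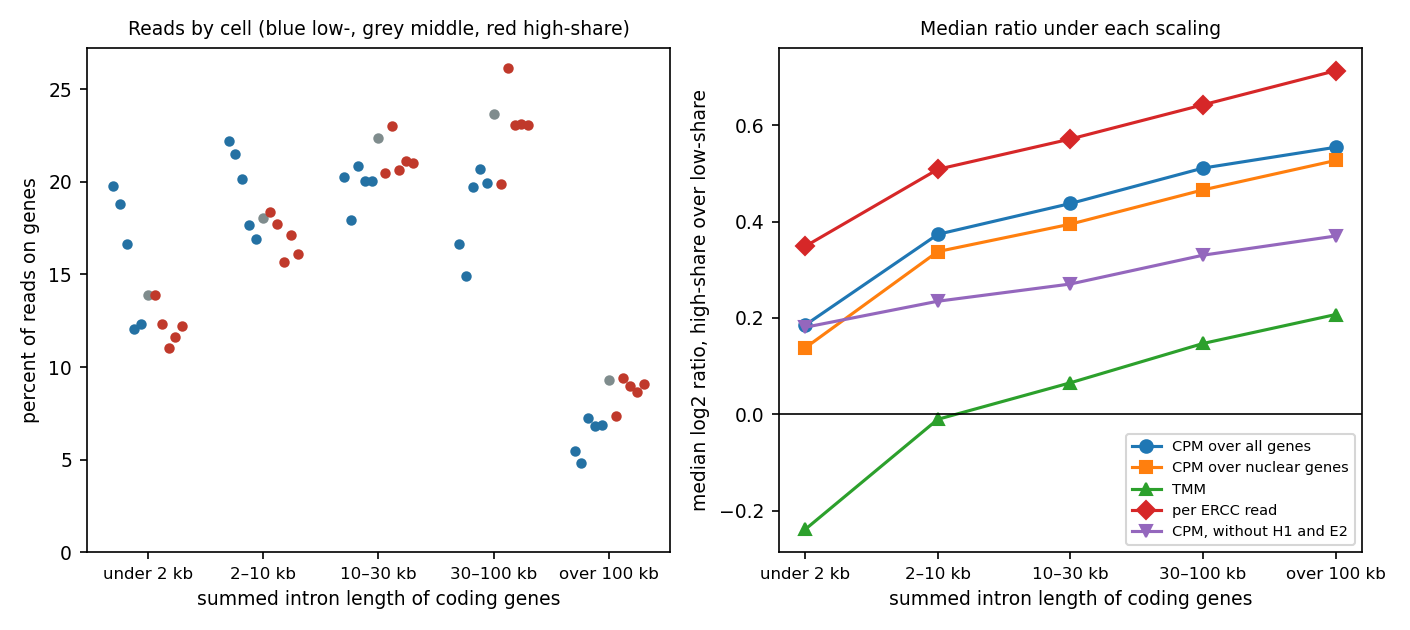
Left, percent of reads on genes that fell on coding genes of each intron class, with 1 point per cell (blue low-share, grey middle, red high-share). Right, median log2 ratio of the high-share over the low-share cells by intron class under 4 scalings and without H1 and E2; each line is higher at over 100 kb than at under 2 kb, and the TMM line crosses 0.

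The level of these ratios depended on the scaling, and the longest class lay above the shortest under each one. Under TMM the medians ran from -0.24 (under 2 kb) to 0.21 (over 100 kb), and the summed level of the genes with over 100 kb of introns overlapped between sets (log2 ratio 0.08 in place of 0.48). Per ERCC read the log2 ratio was 0.65, and the sums overlapped too. Without H1 and E2 the medians ran from 0.18 to 0.37. Exon length moved with the ratio as well. Over 5 equal groups of coding genes by exon length the median log2 ratio went from 0.12 at the shortest to 0.65 at the longest. Among the genes lowest in Takara cells, of 3 equal groups, it was 0.38 at under 2 kb of introns and 0.71, 0.72, 0.64 and 0.73 in the longer classes. Among the highest it was -0.0043, 0.17, 0.25, 0.36 and 0.31 in the same order, and at middle levels 0.38, 0.52, 0.50, 0.57 and 0.54. The parts of exon length and of expression level in the result were not tested.

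The 246 higher genes with annotation had a median exon length of 6859 bases and 30331 bases of introns, against 5514 and 27140 for all genes compared. The median GC content of their exons was 50.8%, against 47.0%. A run of at least 15 A was present in the introns of 75.2% of higher genes and of 74.6% of all genes compared. The 25 lower genes had medians of 2415 bases of exons and 5768 bases of introns.

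Among gene lists, nuclear genes of oxidative phosphorylation separated the sets by their sum. These encode subunits of the respiratory chain and ATP synthase. Their summed CPM was 16693 in B1, 16540 in A2, 14105 in B2, 15199 in E1 and 16093 in D1. It was 34692 in H1, 38674 in E2, 27902 in D2, 16775 in G1 and 18118 in A1. The high-share cells were all lower, but G1 lay next to B1, and H1, E2 and D2 had the highest sums. Of 42 genes compared, 0 were called, and the median log2 ratio was -0.92, against 0.43 for all genes. ATP5F1E had 735 to 1151 CPM against 812 to 4499 CPM, and NDUFA4 1276 to 2022 CPM against 1970 to 3458 CPM. Per ERCC read the sums overlapped. Cytosolic ribosomal proteins were arranged alike, with 68789 to 105128 CPM against 72133 to 163485 CPM, 0 of 76 genes called and a median of -0.69. Here H1, E2 and D2 had 141248, 163485 and 148358 CPM, and every other cell at most 105128.

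Zinc finger genes, which encode DNA-binding transcription factors, many of them repressors, separated the sets in the other direction. Their summed CPM was 5630 to 7049 in the high-share cells and 3060 to 5014 in the low-share cells. The middle cell C1 had 6461 CPM, above B1, B2 and E1. Of 264 genes compared, 10 were called higher (3.79%, against 2.45% of all genes) and 0 lower, with a median of 0.65. ZNF639 had 34.1 to 105 CPM against 17.3 to 30.3 CPM, and ZNF107 29.5 to 66.9 CPM against 0 to 12.4 CPM. ZNF692, ZNF652, ZNF569, ZNF615, ZNF260, ZNF764, ZNF793 and ZNF460 were the others. Many members are similar in sequence, so reads may be divided between them. The list remained separate under TMM (log2 ratio 0.24, with 5 called), and overlapped per ERCC read.

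Very long genes expressed in most tissues had 2 of 27 called, both higher, where 2.45% of all genes were called higher. Their median log2 ratio was 0.51, against 0.43 for all genes. MED13L, a Mediator subunit with 286930 bases of introns, had 238 to 484 CPM against 46.0 to 192 CPM. AKAP13, an anchoring protein for protein kinase A with 348510 bases of introns, had 12.1 to 89.6 CPM against 0 to 8.57 CPM. BPTF, NCOR1 and FNDC3B, which are also on the list, overlapped (log2 ratios of 0.16, 0.35 and 0.54). Nuclear lncRNAs, which stay at chromatin or in nuclear bodies, had 0 of 9 called and a median of 0.88. MALAT1 had 1326 to 3219 CPM against 2041 to 3514 CPM, and NEAT1, the scaffold of paraspeckles, 78.0 to 548 CPM against 65.7 to 323 CPM. Splicing factors known for retained introns had 0 of 30 called and a median of 0.31, with SON at 348 to 813 CPM against 212 to 627 CPM. Small nucleolar RNA host genes had 0 of 17 called and a median of -0.09. Antisense and divergent lncRNAs had a median of -0.42 and 1 of 153 called, ZFAND2A-DT (log2 ratio 3.41), which was higher, against 2.45% of all genes. Luminal identity genes had a median of 0.12 and 1 of 18 called, TFF1, which was lower, against 0.248% of all genes, while AGR2, KRT8 and KRT19 overlapped.

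Cell cycle genes varied among the cells of both sets. The summed level of genes of G2 and mitosis was 2699 CPM in B1, 18584 in A2, 18067 in B2, 14927 in E1 and 4867 in D1, against 2571 in H1, 2177 in E2, 1008 in D2, 9634 in G1 and 10119 in A1. The sets overlapped and 0 of 28 genes were called. The median log2 ratio of these genes was 1.12, against 0.43 for all genes, and 28 of 28 had a ratio above 0. TOP2A, the DNA topoisomerase of mitosis, was at 120 to 3075 CPM against 60.9 to 1250 CPM. S phase genes had 1150 to 6759 CPM against 600 to 5245 CPM, 0 of 25 called and a median of 0.56. H1, E2 and D2, which were low in genes of G2 and mitosis, were also the cells with the highest sums of ribosomal protein and oxidative phosphorylation genes and the fewest silent genes. The part of the cell cycle in the differences between sets was not tested. Stress genes (0 of 18 called), p53 targets (0 of 14), replication-dependent histones (0 of 13), MT coding genes (0 of 13) and MT rRNAs (0 of 2) overlapped between sets by their sums. The MT coding genes had a median log2 ratio of -0.63, against 0.43 for all genes. Their sums were 28539 to 68680 CPM against 59255 to 96765 CPM. Protocadherin clusters had 0 of 8 called. Of the tissue lists, 0 of 3 very long genes of other tissues, 0 of 3 muscle, 0 of 2 germ cell and 0 of 1 neuron, blood cell and eye genes each were called, and no liver, olfactory receptor, keratin-associated, taste receptor or beta-defensin gene reached the level for comparison.

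**Figure D5:**
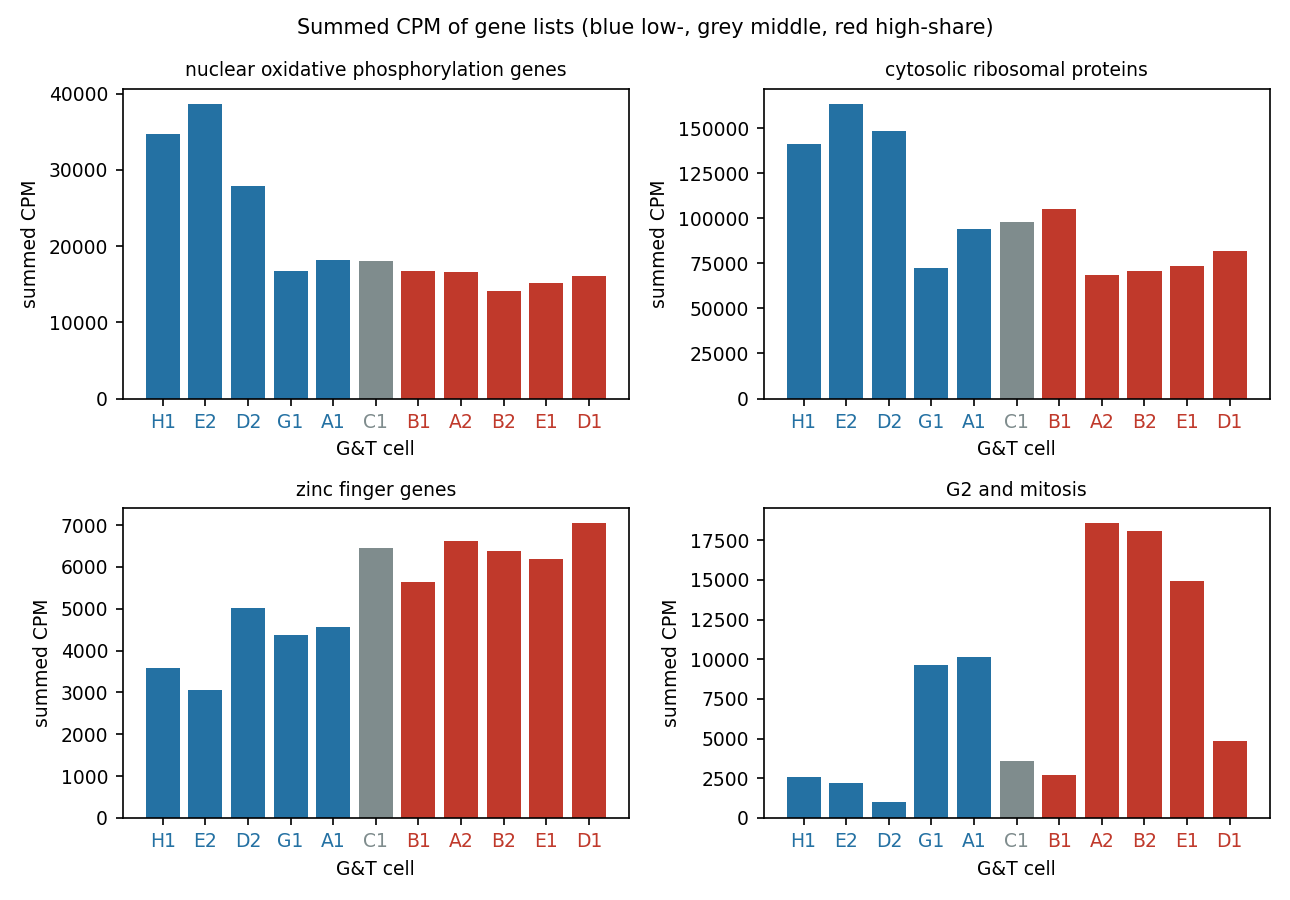
Summed CPM of 4 gene lists in each of the 11 ranked G&T cells, with 1 bar per cell in order of the unannotated share (blue low-share, grey middle, red high-share). H1, E2 and D2 have the tallest bars for both upper lists, and the G2 and mitosis bars overlap. The zinc finger bars are taller in all high-share than in all low-share cells, and the middle cell C1 lies within the high-share range.

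The same split within the other kits gave fewer calls. Among Takara cells, the 5 of highest and 5 of lowest share (3.81% and 2.04% on average) had 25 genes higher (0.261%) and 19 lower (0.198%) of 9576, and 1 of the 25 was among the 247 of G&T. Among NEB cells (15.9% and 10.7%) 22 were higher (0.281%) and 31 lower (0.396%) of 7819, and 2 of the 22 were among the 247. Genes detected overlapped in both kits, at ratios of means of 0.998 and 0.972. Reads on genes with over 100 kb of introns made up 5.81% and 5.81% of reads in the Takara sets and 12.2% and 10.5% in the NEB sets, with overlap in both. Genes of G2 and mitosis separated the NEB sets, with 139 to 2745 CPM in the high-share and 5161 to 38492 CPM in the low-share cells, whereas they were higher on average in the high-share cells of G&T. In the Takara sets they overlapped (273 to 20423 CPM against 699 to 24391 CPM). NEB cells had 0 reads on olfactory receptor genes in all 11 cells, at 624772 to 963816 reads on genes and 4416 to 6719 genes detected. In Takara cells these genes summed to 0 to 14.4 CPM. The tissue lists together had 208 to 832 CPM per Mb in NEB cells, with 2 to 8 of their genes detected. In Takara cells they had 64.4 to 165 CPM per Mb, with 8 to 24 genes detected. Germ cell genes alone summed to 506 to 1759 CPM in NEB cells, and each other tissue list to at most 221 CPM. The density of the lists together was thus not particular to high-share G&T cells, where 23 to 49 of their genes were detected. Protocol, plate and run cannot be told apart.

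The cells were distinct libraries, with at least 11745 genes differing in count between any 2 cells. The rank correlation of CPM over the genes compared was 0.69 on average between high-share cells (0.64 to 0.74), 0.64 between low-share cells (0.57 to 0.75) and 0.63 between cells of different sets.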

How the data were processed

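Cells were grouped by protocol from their titles, and G&T cells were ranked by the share of unannotated reads as described. Raw read counts were deposited by the authors in a table for each protocol, after trimming with Trim Galore and alignment with STAR on GRCh38, without normalization or molecular identifiers. The annotation release and the strand column that was read are not given in the sources used here. Besides 60279 genes, a table lists 92 ERCC spike-ins and 4 classes of reads given to no gene, and CPM leaves these out. Without strand, overlapping and antisense genes cannot be told apart.

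CPM was computed over reads on genes. Gene types, exons and introns came from GENCODE release 44 on GRCh38, which matched 56104 of the 60279 identifiers, and may not be the authors' release. Intron length is the gene span less the union of its exons. Silent genes leave out MT and Y genes. Takara and NEB cells passed at 1000 genes, 600000 reads on genes and ERCC spike-ins, at most 30% MT and at most 25% ERCC reads. Thinning used exact rarefaction, and folds against a set without reads were taken against 3 reads over the set. No test was made, because cells with no separate cultures named, chosen by a measured value, are not replicates. The rule for calls was run on simulated counts with large changes in abundant genes. That run does not cover low levels or smaller folds, and its spread was not fitted to these cells.

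Genes named are the 12 highest and 12 lowest ratios among called genes, the 4 most abundant of a list, position or biotype, 6 recurrent silent genes, the sorting markers, MALAT1 and NEAT1. Called genes of a list outside these were named after their values were seen. Not every gene so chosen is printed. The cells, gene lists and comparisons were chosen with earlier results of these data known. Alternatives were the scaling (nuclear genes, TMM, ERCC), filters, folds, set sizes, definitions of silent genes and leaving out each cell. Leaving out H1 and E2 together, ERCC scaling of silent genes and thinning of silent and lncRNA genes were chosen after seeing the data. Tools were Python 3.11.15, numpy, pandas, scipy, matplotlib and edgeR for TMM factors.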

Additional observations from a re-analysis of the deposited data

Results flagged for a closer look

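A2 had the smallest part of MT reads among the high-share cells, 9.18% of its library, and its gap to the next cell was 0.744 of the range of the set. Of 40 sets of 5 values examined, 1 was flagged in this way, and chance flags about 1 in 20. The 2 unranked cells also had reads on silent coding genes. C2 had 137 silent genes with a read and 56.9 CPM per Mb of silent exon, and F1 had 146 genes and 44.7 CPM per Mb. Their unannotated shares were 13.5% and 17.2%, so F1 lay above B1 (14.9%). F1 had fewer silent genes with a read than low-share cells G1 (189) and A1 (209). It detected 10685 genes, fewer than D2 (10831). The lack of overlap in these counts thus holds for the ranked cells only. F1 had 596867 reads on genes and ERCC spike-ins and C2 33.7% MT reads, each outside a threshold used for the other kits.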

How the results depend on the processing

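Values are log2 ratios of the means of the high-share over the low-share cells, or counts of genes. Of 288 values of 19 results under alternatives, 262 moved by less than 1 SD within sets (counts by less than 1.5-fold), 26 moved further, and 0 separated results changed sign. Ranking by the share of uniquely mapped reads kept the same sets, so its values counted here could not move. The results also include the share that chose the cells, whose separation the ranking fixed. Leaving out each cell gave 277 to 503 higher and 30 to 70 lower genes, and 4 against 4 cells, which also left out the cells nearest the middle, gave 734 and 135. TMM gave 132 higher and 82 lower genes, and moved the genes with over 100 kb of introns to 0.0802, ribosomal proteins to -1.10, oxidative phosphorylation genes to -1.29, zinc finger genes to 0.24 and very long genes to 0.28. A fold of 4 gave 139 higher and 6 lower genes. As a percent of detected genes, genes with over 100 kb of introns had a ratio of 0.0230. All lncRNA genes outside coding genes, silent or not, had 0.21. Without H1 and E2, 70 genes were lower and the unmapped reads had a ratio of 0.12 in place of -0.36. The causes were not tested, except where the construction shows them. No paired analysis was possible because the cells carry only well names. Genes with few reads per cell limit the calls, and only large ratios can be called at low levels.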
